A study of Homo sapiens with 12 samples.

Results

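The 10 genes described here are ligands, a receptor, inhibitors and targets of the Wnt pathway, namely AXIN2, LEF1, TCF7, TCF7L2, NKD1, RNF43, DKK1, WNT5A, WNT7B and FZD7. They were chosen by symbol, each symbol matched 1 of the 62754 Ensembl identifiers in a gene count table, and all 10 passed the filter on low counts that left 17115 genes. The table held 12 RNA sequencing libraries of PC9, an EGFR-mutant cell line established from a human lung adenocarcinoma, in 4 groups of 3 cultures. Erlotinib, an EGFR kinase inhibitor, was given at 1 µM to TDP1 WT cells. Those sampled after 7 days are called drug-tolerant cells (DTC), and those sampled after 28 days drug-tolerant expanded cells (DTEC). Both were compared with untreated TDP1 WT cells, as were untreated TDP1 knockout cells of the line KO2. All cells came from a subclonal PC9 line, and the cultures of a condition were split from a shared flask and then grown apart, so p-values measure the spread between such cultures. KO2 was the single knockout line, and the labels do not say whether it is 1 clone, so that loss of TDP1 and any other difference of that line cannot be told apart, and it was not given drug. TDP1, which frees DNA ends from trapped topoisomerase I, had a mean CPM of 26.3 ± 1.60 in untreated WT (SD, n = 3), 13.96 ± 1.56 CPM in DTC, 26.6 ± 1.54 CPM in DTEC and 10.8 ± 0.647 CPM in KO2, 41.0% of untreated WT.

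Wnt ligands are secreted lipid-modified proteins that bind Frizzled receptors. In the canonical branch, Frizzled and its LRP co-receptors stop a cytoplasmic destruction complex from degrading β-catenin, which then acts with TCF and LEF factors on target genes. Several targets, among them AXIN2, NKD1 and RNF43, encode inhibitors of the pathway, and AXIN2 transcript is widely used as a readout of canonical signalling. In lung, Wnt signals take part in alveolar development and repair.

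The libraries held 25572691 to 38373679 estimated counts, and levels are given as CPM, counts scaled to a fixed library total, after TMM scaling, a scaling that assumes most genes did not change. Over the libraries 3 counts corresponded to 0.0824 to 0.115 CPM. The epithelial markers EPCAM, CDH1, KRT7, KRT8, KRT18 and KRT19 summed to 6293 to 7277 CPM in DTC. In the other groups they summed to 9276 to 12310 CPM. From untreated WT to DTC, means fell for KRT8 (4015 to 1869), KRT18 (2930 to 1184), EPCAM (634 to 363) and KRT19 (1190 to 946). Means did not fall for CDH1 (285.5 to 298 CPM) and KRT7 (1965 to 2071 CPM). The lung lineage factor NKX2-1 had at most 3 counts in each library of untreated WT, DTEC and KO2. It averaged 0.366 CPM in DTC. NAPSA, the other lung marker, averaged 0.127 CPM in untreated WT, 1.62 CPM in DTC, 0.541 CPM in DTEC and 0.2435 CPM in KO2. Of 5 fibroblast markers, COL1A2 and DCN had at most 3 counts in every library. The 5 together came to 54.9 to 57.6 CPM in DTC against 7.99 to 15.1 CPM in the other groups. Nearly all of this was COL1A1. Its means were 8.30 CPM in untreated WT, 55.7 CPM in DTC, 12.4 CPM in DTEC and 13.8 CPM in KO2. The 4 endothelial markers summed to 122 to 142 CPM in DTEC and 42.2 to 77.3 CPM elsewhere, nearly all from PECAM1 and CDH5. Mean PECAM1 was 32.0 CPM in untreated WT, 8.77 CPM in DTC, 92.1 CPM in DTEC and 48.4 CPM in KO2. Mean CDH5 was 27.7, 35.0, 36.75 and 28.0 CPM in the same order. The 5 leukocyte markers summed to at most 2.56 CPM. The part of these markers in the results was not tested.

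Promoter windows in RefSeq (GRCh38.p14), running from 250 bases before to 50 bases after an annotated start, matched 6 of the 10 genes with 11 windows, not AXIN2, NKD1, WNT7B and FZD7. They were searched on both strands for CTTTGA, a form of the core of the site bound by TCF and LEF factors (TCAAAG on the other strand). They were also searched for TATAAA, the TATA box. Other forms of the core, such as CTTTGT, were not searched for, so a window without CTTTGA may still hold such a core. CTTTGA occurred in 12.9% of all 35116 windows and TATAAA in 11.5%. The windows of DKK1 (chr10:52314031-52314330, plus strand), of the upstream TCF7 start (chr5:134115363-134115662, plus strand) and of the RNF43 start farthest upstream (chr17:58417485-58417784, minus strand) are shown because, within the 10 genes, the changes of DKK1 and RNF43 in DTC were the largest of the inhibitors and that of TCF7 the largest of the TCF and LEF factors. Each is written 5′ to 3′ on the gene's strand, and capitals mark CTTTGA or its complement.
DKK1: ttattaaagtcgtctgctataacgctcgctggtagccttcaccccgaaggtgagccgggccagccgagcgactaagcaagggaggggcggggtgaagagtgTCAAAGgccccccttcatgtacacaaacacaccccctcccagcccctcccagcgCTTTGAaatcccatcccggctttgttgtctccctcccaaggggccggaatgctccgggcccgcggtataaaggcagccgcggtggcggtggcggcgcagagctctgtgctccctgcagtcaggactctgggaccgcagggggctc
TCF7: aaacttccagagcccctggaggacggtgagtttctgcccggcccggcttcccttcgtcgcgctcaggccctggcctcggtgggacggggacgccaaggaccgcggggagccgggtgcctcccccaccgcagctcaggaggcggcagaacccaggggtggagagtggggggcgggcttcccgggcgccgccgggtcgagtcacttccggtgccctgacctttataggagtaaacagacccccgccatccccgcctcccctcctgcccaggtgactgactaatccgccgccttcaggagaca
RNF43: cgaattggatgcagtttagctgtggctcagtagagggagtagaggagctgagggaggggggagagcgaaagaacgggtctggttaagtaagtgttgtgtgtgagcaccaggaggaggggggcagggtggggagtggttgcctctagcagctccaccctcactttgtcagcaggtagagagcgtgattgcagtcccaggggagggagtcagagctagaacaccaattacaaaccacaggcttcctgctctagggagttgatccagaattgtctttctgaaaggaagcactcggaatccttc
DKK1 was the one gene of the 6 with CTTTGA in a window, once as TCAAAG at bases 102 to 107 and once as CTTTGA at bases 156 to 161, and it had TATAAA at bases 221 to 226. The TCF7 window had TATAAA on the opposite strand at bases 219 to 224. The RNF43 window shown had neither sequence, but it holds CTTTGT, as does that of DKK1. These matches describe the letters of the windows and are not measured binding sites.

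Counts of changed genes were read against the share of all 17115 tested genes that changed in the same comparison, at an adjusted p under 0.05 in edgeR's quasi-likelihood test. In parentheses, log2 stands for the log2 fold change, with its standard error (SE). In DTC against untreated WT, 3 of the 10 genes rose (AXIN2, RNF43, DKK1) and 3 fell (TCF7, TCF7L2, NKD1), where 34.0% of all tested genes rose and 33.3% fell. In DTEC against untreated WT, 3 rose (AXIN2, RNF43, WNT5A) and 3 fell (TCF7, LEF1, DKK1), with 26.0% and 26.3% of all tested genes doing so. These shares lie near the background, so the counts alone do not set the 10 genes apart. From DTC to DTEC, 6 rose and 2 fell, against 28.8% and 26.6% of all tested genes. In KO2 against untreated WT, 2 rose (AXIN2, RNF43) and 1 fell (LEF1), where 2.76% of all tested genes rose and 1.55% fell. The comparisons of DTC, DTEC and KO2 with untreated WT share the untreated WT libraries. The median log2 fold change of the 10 genes was -0.08 in DTC, 0.09 in DTEC, 0.77 from DTC to DTEC and 0.19 in KO2, beside 0.06, 0.02, -0.01 and -0.01 over all tested genes. Because RNA came from whole cultures, fewer cells expressing a gene and less RNA per cell cannot be told apart.

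**Figure D1:**
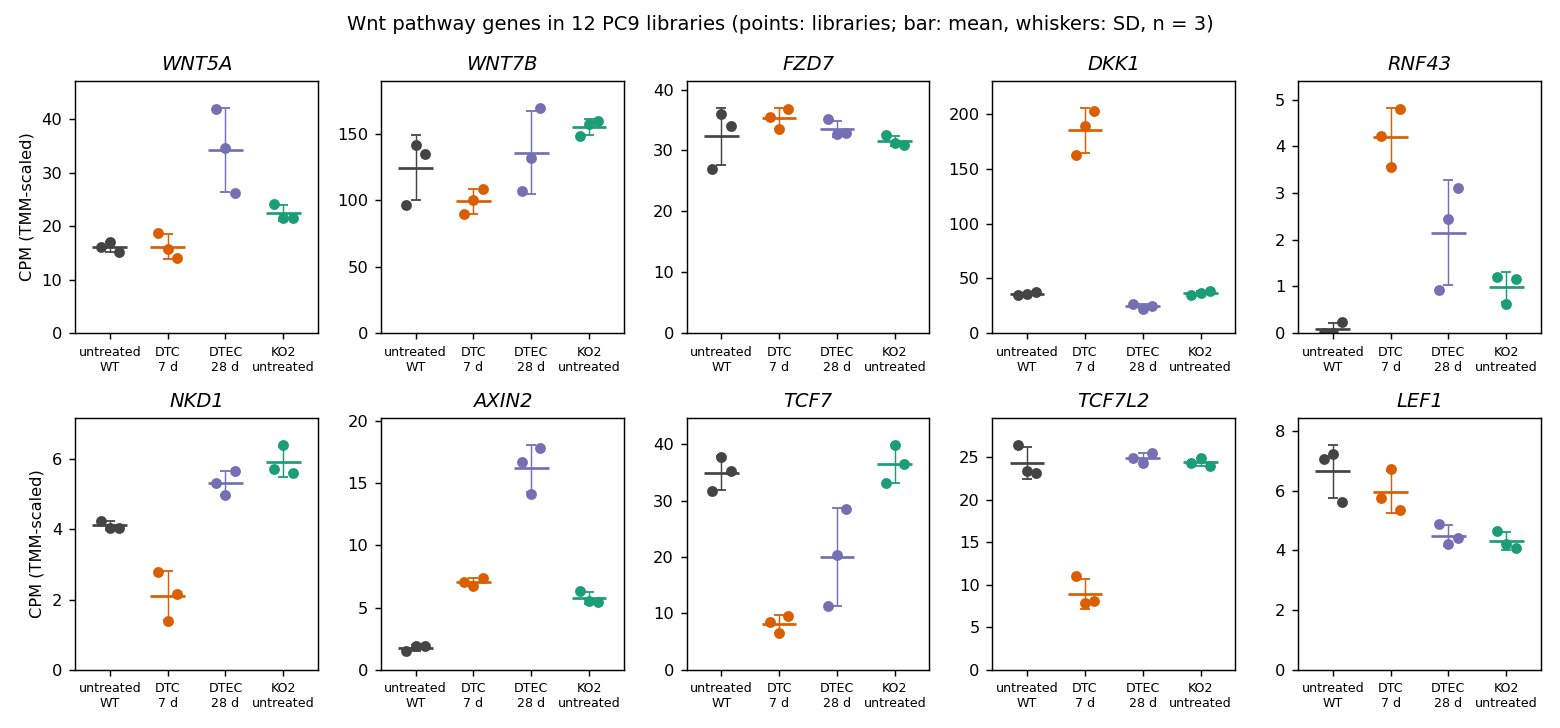
Levels of the 10 genes in CPM (vertical axes, linear from 0) in the 12 libraries by group. Points are libraries, horizontal bars group means and whiskers the SD over 3 libraries; AXIN2 was lowest in untreated WT and highest in DTEC, DKK1 was highest in DTC, and TCF7 and TCF7L2 were lowest in DTC.

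Divided by the joined length of all annotated exons of each gene, levels were ordered between genes. That length was 17425 bases for NKD1, 10063 for TCF7 and 2206 for DKK1. It can exceed the length of the transcripts present, which was not measured, so the order depends on this divisor. Before division, NKD1 (4.11 CPM) was above AXIN2 (1.77 CPM) in untreated WT. In untreated WT the order of mean CPM per kilobase was WNT7B (24.6), DKK1 (16.2), FZD7 (8.37), TCF7L2 (3.61), TCF7 (3.47), WNT5A (2.18), LEF1 (1.24), AXIN2 (0.339), NKD1 (0.236) and RNF43 (0.0103). Within that order only the libraries of the neighbours TCF7L2 and TCF7 overlapped. In DTC, DKK1 led at 84.0 CPM per kilobase and AXIN2 (1.35) had moved up to stand beside TCF7L2 (1.33), with overlapping libraries. In DTEC, AXIN2 (3.10) stood above TCF7 (1.99), again with overlap, and WNT7B (26.9) led. In KO2 the order was that of untreated WT except that AXIN2 (1.11) stood above LEF1 (0.806), without overlap, and TCF7 (3.63) and TCF7L2 (3.62) changed places within their spread.

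Among the ligands, WNT5A, which acts mostly through noncanonical branches, was higher in DTEC and WNT7B, a canonical ligand of lung epithelium, was not called against untreated WT in any group. WNT5A (ENSG00000114251, GRCh38 chromosome 3, 55465715 to 55490539) was at 16.2, 17.0 and 15.1 CPM in untreated WT, 18.7, 15.7 and 14.0 CPM in DTC, 41.8, 34.6 and 26.1 CPM in DTEC and 24.1, 21.5 and 21.5 CPM in KO2. All 3 DTEC libraries lay above every other library, while DTC and untreated WT overlapped. Its level in DTEC was 2.12-fold that of untreated WT (log2 1.09 ± 0.156 SE, edgeR quasi-likelihood adjusted p 4.88e-05) and 2.12-fold that of DTC (log2 1.08, adjusted p 4.73e-05). In KO2 its 3 libraries were above all 3 of untreated WT, but the log2 difference of 0.47 was not called (adjusted p 0.116). It was called there when KO2 and untreated WT were fitted alone (0.00176), with no count filter (0.0194) and with a replicate block (0.0351).

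WNT7B (ENSG00000188064, chromosome 22, 45920362 to 45977129) was the most abundant of the 10 per length in 3 of the 4 groups. It was at 96.3, 142 and 135 CPM in untreated WT, 89.6, 99.9 and 108 CPM in DTC, 107, 132 and 169 CPM in DTEC and 148, 157 and 159 CPM in KO2. Untreated WT, DTC and DTEC overlapped, and KO2 lay above untreated WT. Neither DTC (log2 fold change -0.32, adjusted p 0.0958), DTEC (0.13, adjusted p 0.531) nor KO2 (0.32, adjusted p 0.353) was called against untreated WT. DTC was called lower with no count filter (adjusted p 0.0298), with a replicate block (0.0277) and without untreated WT replicate 1 (0.0307). DTEC was called above DTC (log2 0.45 ± 0.164 SE, adjusted p 0.0305), but that call was lost with total counts alone (adjusted p 0.194), with the upper quartile (0.176), in a fit of the compared groups alone (0.0766) and without DTC replicate 1 (0.127), DTC replicate 2 (0.0909), DTEC replicate 2 (0.0706) or DTEC replicate 3 (0.258). Of its 12 deposited values 1 was whole and the others were fractional estimates.

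FZD7 (ENSG00000155760, chromosome 2, 202034587 to 202038445), a Frizzled receptor, had the narrowest range of group means of the 10, 0.16 on the log2 scale. It was at 27.0, 35.9 and 33.9 CPM in untreated WT, 35.5, 33.5 and 36.8 CPM in DTC, 35.1, 32.7 and 32.9 CPM in DTEC and 32.5, 31.2 and 30.9 CPM in KO2, and all groups overlapped with untreated WT. Its log2 fold change against untreated WT was 0.13 in DTC (95% interval -0.10 to 0.36, adjusted p 0.311), 0.06 in DTEC (-0.17 to 0.29, adjusted p 0.683) and -0.03 in KO2 (-0.26 to 0.20, adjusted p 0.916). With total counts alone or the upper quartile, scalings that also raised the median of all genes in DTC by 0.36 and 0.29 on the log2 scale, FZD7 was called higher in DTC (log2 0.48, adjusted p 0.00144, and 0.41, adjusted p 0.00329).

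DKK1 (ENSG00000107984, chromosome 10, 52314296 to 52318042), a secreted inhibitor that binds LRP5 and LRP6, rose at 7 days and was below its untreated level at 28 days. It was at 34.8, 35.3 and 37.2 CPM in untreated WT, 163, 189 and 203 CPM in DTC, 26.9, 21.8 and 24.5 CPM in DTEC and 34.9, 36.4 and 38.3 CPM in KO2. Every DTC library was above, and every DTEC library below, all 6 untreated libraries of WT and KO2. The level in DTC was 5.18-fold that of untreated WT (log2 2.37 ± 0.111 SE, adjusted p 4.61e-10). DTEC was 0.683-fold untreated WT (log2 -0.55 ± 0.108 SE, adjusted p 0.000682), and DTC was 7.58-fold DTEC (log2 difference from DTC to DTEC -2.92, SE 0.114, adjusted p 2.25e-10). In KO2 the difference was 0.03 on the log2 scale (95% interval -0.20 to 0.26, adjusted p 0.921). An antisense gene, PRKG1-AS1, overlaps 9.61% of the exon bases of DKK1 and was at 2.65 to 6.56 CPM, and as the strand setting of the counting is not given in the sources used here, reads of the shared bases may count for either gene. Among the printed promoter windows that of DKK1 is the one with CTTTGA, though CTTTGT also stands in that of RNF43.

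RNF43 (ENSG00000108375, chromosome 17, 58352500 to 58417595) encodes a membrane ubiquitin ligase that removes Frizzled from the cell surface and is itself a Wnt target. Its deposited estimated counts were 0, 0 and 8 in untreated WT, 125, 121 and 164 in DTC, 30.0, 64 and 113 in DTEC and 34, 19.3 and 42 in KO2. In CPM these were 0, 0 and 0.231 in untreated WT, 4.22, 3.56 and 4.81 in DTC, 0.914, 2.44 and 3.11 in DTEC and 1.19, 0.615 and 1.16 in KO2. All libraries of the other 3 groups lay above those of untreated WT. SUPT4H1, on the same strand, shares 1.91% of the exon bases of RNF43 and was at 56.9 to 102.5 CPM over the libraries. A protein-coding gene model on the same strand, AC004687.2 (ENSG00000285897), covers 57.6% of the exon bases of RNF43 in GENCODE 29. That gene had 8.25, 9.45 and 0 counts in untreated WT, where RNF43 had 0, 0 and 8. The sums of both were 8.25, 9.45 and 8 counts, nearly level over the 3 libraries.

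**Figure D2:**
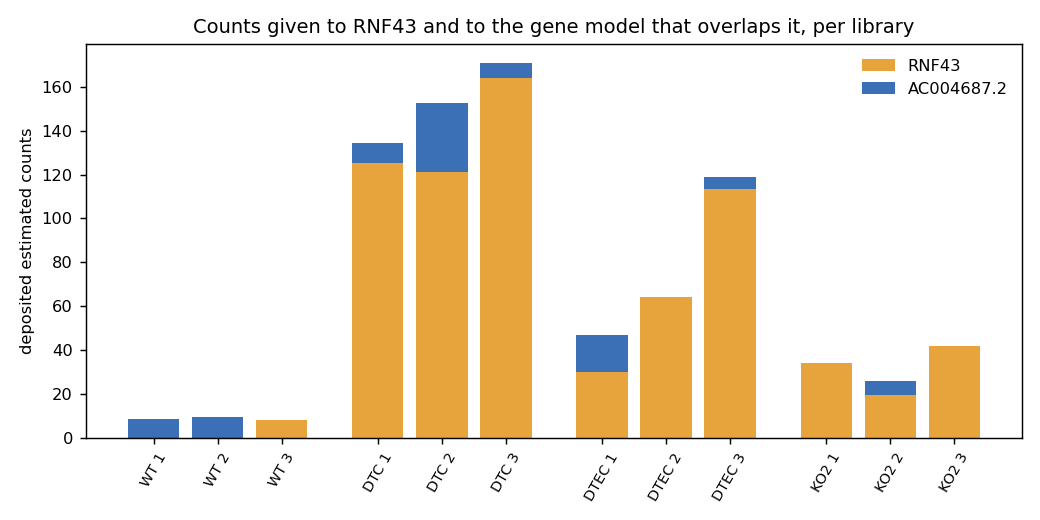
Deposited estimated counts (vertical axis, from 0) of RNF43 and of the overlapping gene AC004687.2, stacked for each library (horizontal axis, group and replicate). In untreated WT the counts fell wholly to AC004687.2 in replicates 1 and 2 and wholly to RNF43 in replicate 3, while in DTC most fell to RNF43.

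Summed with AC004687.2, an alternative chosen after both sets of counts had been seen, RNF43 averaged 0.265 ± 0.0469 CPM over the 3 untreated WT libraries (SD), 4.68 ± 0.290 CPM in DTC, 2.38 ± 0.926 CPM in DTEC and 1.07 ± 0.194 CPM in KO2. The log2 fold change against untreated WT was then 4.21 ± 0.334 (SE) in DTC, 3.22 ± 0.337 in DTEC and 2.06 ± 0.352 in KO2, and each was called (adjusted p 5.62e-08, 2.54e-06 and 0.00404). For RNF43 alone they were 5.63, 4.67 and 3.55, with SE of 0.720, 0.736 and 0.777 and adjusted p of 1.15e-05, 0.000144 and 0.0205. Without untreated WT replicate 3, whose 8 counts were the sole ones of that group, the remaining untreated WT libraries were at 0, and the fitted log2 values for RNF43 alone, up to 10.1 in DTC, then have no meaning as sizes. The call in KO2 for RNF43 alone was lost when untreated WT replicate 1 (adjusted p 0.0803) or 2 (0.0647) or KO2 replicate 1 (0.072) or 3 (0.0812) was left out. From DTC to DTEC the log2 difference was -0.96 (adjusted p 0.114), not called. It was called with no count filter (adjusted p 0.00487) and for the sum (log2 -0.99, adjusted p 0.00563).

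NKD1 (ENSG00000140807, chromosome 16, 50548330 to 50649249), which binds Dishevelled and restrains the pathway, was called lower at 7 days and not at 28 days. It was at 4.24, 4.05 and 4.04 CPM in untreated WT, 2.77, 1.38 and 2.17 CPM in DTC, 5.33, 4.97 and 5.66 CPM in DTEC and 5.72, 6.41 and 5.61 CPM in KO2. DTC lay below all other libraries, and DTEC and KO2 lay above untreated WT. DTC was called against untreated WT (log2 -0.97 ± 0.206 SE, adjusted p 0.000795), and DTEC was 2.53-fold DTC (log2 1.34, adjusted p 7.88e-05). The log2 differences from untreated WT of 0.37 in DTEC (adjusted p 0.125) and 0.52 in KO2 (adjusted p 0.173) were not called. Both were called in a fit of the compared groups alone (adjusted p 0.0331 and 0.0115), and the first also with total counts alone (0.0319) and the upper quartile (0.0463).

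AXIN2 (ENSG00000168646, chromosome 17, 65528563 to 65561647), a scaffold of the destruction complex and a feedback inhibitor, was higher than in untreated WT in each of the other groups. It was at 1.49, 1.92 and 1.90 CPM in untreated WT, 7.10, 6.71 and 7.36 CPM in DTC, 16.7, 14.1 and 17.8 CPM in DTEC and 6.35, 5.54 and 5.45 CPM in KO2. The 4 groups did not overlap, in the order untreated WT, KO2, DTC, DTEC. The level was 3.98-fold that of untreated WT in DTC (log2 1.99 ± 0.152 SE, adjusted p 4.15e-08), 9.15-fold in DTEC (log2 3.19 ± 0.152 SE, adjusted p 2.48e-09) and 3.25-fold in KO2 (log2 1.70 ± 0.152 SE, adjusted p 1.92e-05). DTEC was 2.30-fold DTC (log2 1.20 ± 0.136 SE, adjusted p 4.91e-06). The KO2 value stayed between 1.61 and 1.78 over 13 alternatives, with adjusted p of at most 0.000324. A gene model on the same strand that covers 25.2% of its exon bases, AC004805.1, was listed at 0 in all 12 libraries, and all 12 deposited AXIN2 values were whole.

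TCF7, TCF7L2 and LEF1 encode the DNA-binding partners of β-catenin. TCF7 (ENSG00000081059, chromosome 5, 134114711 to 134151865) was at 31.8, 37.7 and 35.2 CPM in untreated WT, 8.42, 6.48 and 9.50 CPM in DTC, 11.2, 20.4 and 28.6 CPM in DTEC and 33.1, 39.9 and 36.6 CPM in KO2. DTC lay below all other libraries, and the 3 DTEC libraries spread over the gap between DTC and untreated WT. DTC was 0.233-fold untreated WT (log2 -2.10 ± 0.261 SE, adjusted p 1.01e-05) and DTEC 0.575-fold (log2 -0.80 ± 0.248 SE, adjusted p 0.0159). The DTEC call was lost in a fit of the compared groups alone (adjusted p 0.0603) and also when untreated WT replicate 2 (0.0629) or 3 (0.0513) or DTEC replicate 2 (0.0557) was left out. DTEC was 2.47-fold DTC (log2 1.304, adjusted p 0.00088), and KO2 was not called (log2 0.07, adjusted p 0.926). SKP1, on the opposite strand, overlaps 2.09% of the exon bases of TCF7 and was at 115 to 376 CPM over the libraries.

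TCF7L2 (ENSG00000148737, chromosome 10, 112950250 to 113167678) was low in DTC alone. It was at 26.5, 23.4 and 23.1 CPM in untreated WT, 10.98, 7.80 and 8.06 CPM in DTC, 24.9, 24.4 and 25.5 CPM in DTEC and 24.3, 24.9 and 24.0 CPM in KO2. DTC was 0.367-fold untreated WT (log2 -1.45 ± 0.126 SE, adjusted p 1.73e-07), and DTEC was 2.79-fold DTC (log2 1.48, adjusted p 3.53e-07). The log2 difference from untreated WT was 0.04 in DTEC (adjusted p 0.828) and 0.00463 in KO2 (adjusted p 0.994).

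LEF1 (ENSG00000138795, chromosome 4, 108047545 to 108168956) was at 7.08, 7.25 and 5.62 CPM in untreated WT, 5.75, 6.74 and 5.37 CPM in DTC, 4.87, 4.20 and 4.42 CPM in DTEC and 4.67, 4.21 and 4.09 CPM in KO2. DTC overlapped with untreated WT, while DTEC and KO2 lay below both. DTEC was 0.678-fold untreated WT (log2 -0.56 ± 0.153 SE, adjusted p 0.00674), and DTC was not called (log2 -0.16, adjusted p 0.364, and above 0 under 2 scalings, at 0.20 by total counts and 0.13 by upper quartile). KO2 was 0.65-fold untreated WT (log2 -0.62 ± 0.153 SE, adjusted p 0.034), a call that 7 of 13 alternatives lost, with adjusted p up to 0.165. They were total counts alone, no count filter and the fits without untreated WT replicate 1 or 2 or without any one of the KO2 libraries. The fall from DTC to DTEC (log2 -0.40, adjusted p 0.0375) was lost with no count filter (0.149), with the compared groups alone (0.0722) and without DTC replicate 2 (0.102), DTEC replicate 2 (0.0924) or DTEC replicate 3 (0.0538).

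**Figure D3:**
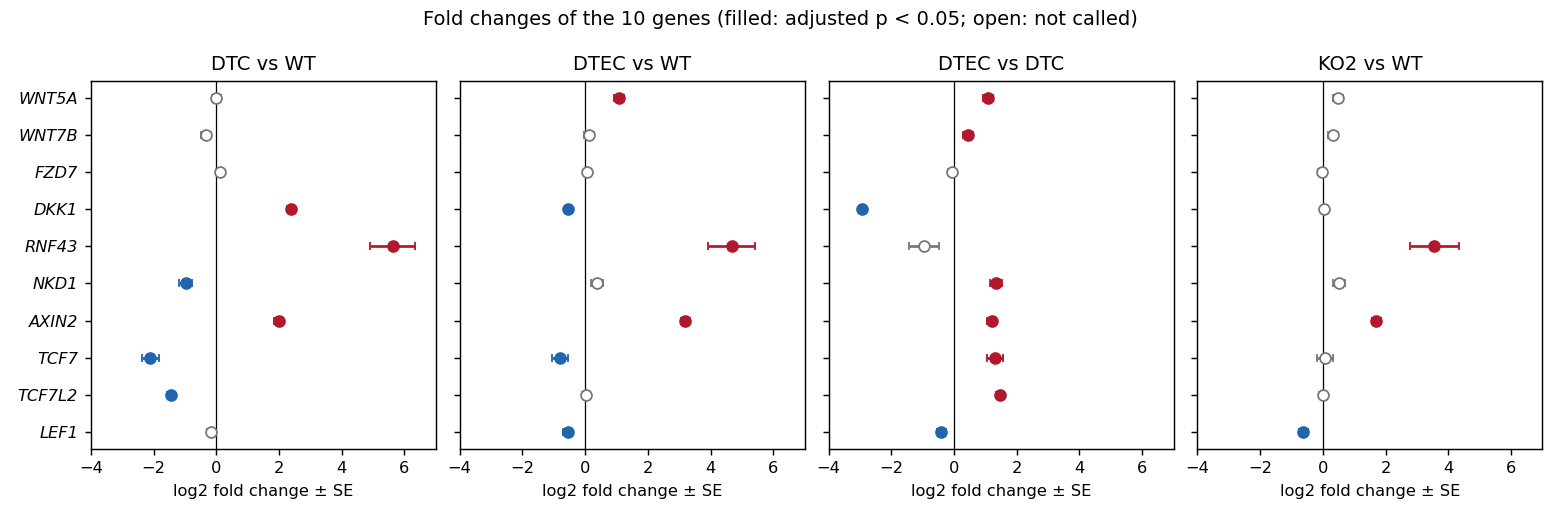
Log2 fold changes (horizontal axes) of the 10 genes in 4 comparisons, with bars for the SE; filled points were called at an adjusted p under 0.05, red higher and blue lower, and open points were not called. AXIN2 is to the right of 0 in all 4 panels. TCF7, TCF7L2, NKD1, DKK1, RNF43, WNT7B and FZD7 change sides between DTC against untreated WT and DTEC against DTC. DTC enters these comparisons with opposite sign, so a change of side is in part built in.

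The rest of the pathway was described from a list of 99 genes in 8 role groups, 10 of them the genes above. Of the 99, 68 passed the count filter. In DTC 17 rose and 31 fell, but 25 rose and 22 fell with total counts alone and 24 and 24 with the upper quartile. In DTEC 19 rose and 25 fell, against 25 and 19 with total counts alone and 24 and 21 with the upper quartile. From DTC to DTEC 31 rose and 17 fell, and more rose than fell under every scaling tried. In KO2 10 rose and 1, LEF1, fell, or 11 and 0 with total counts alone. The called share of the 68 was 70.6%, 64.7%, 70.6% and 16.2% in these comparisons, beside 67.3%, 52.3%, 55.4% and 4.31% of all tested genes. Their median log2 fold change was -0.29, -0.04, 0.31 and 0.05.

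**Figure D4:**
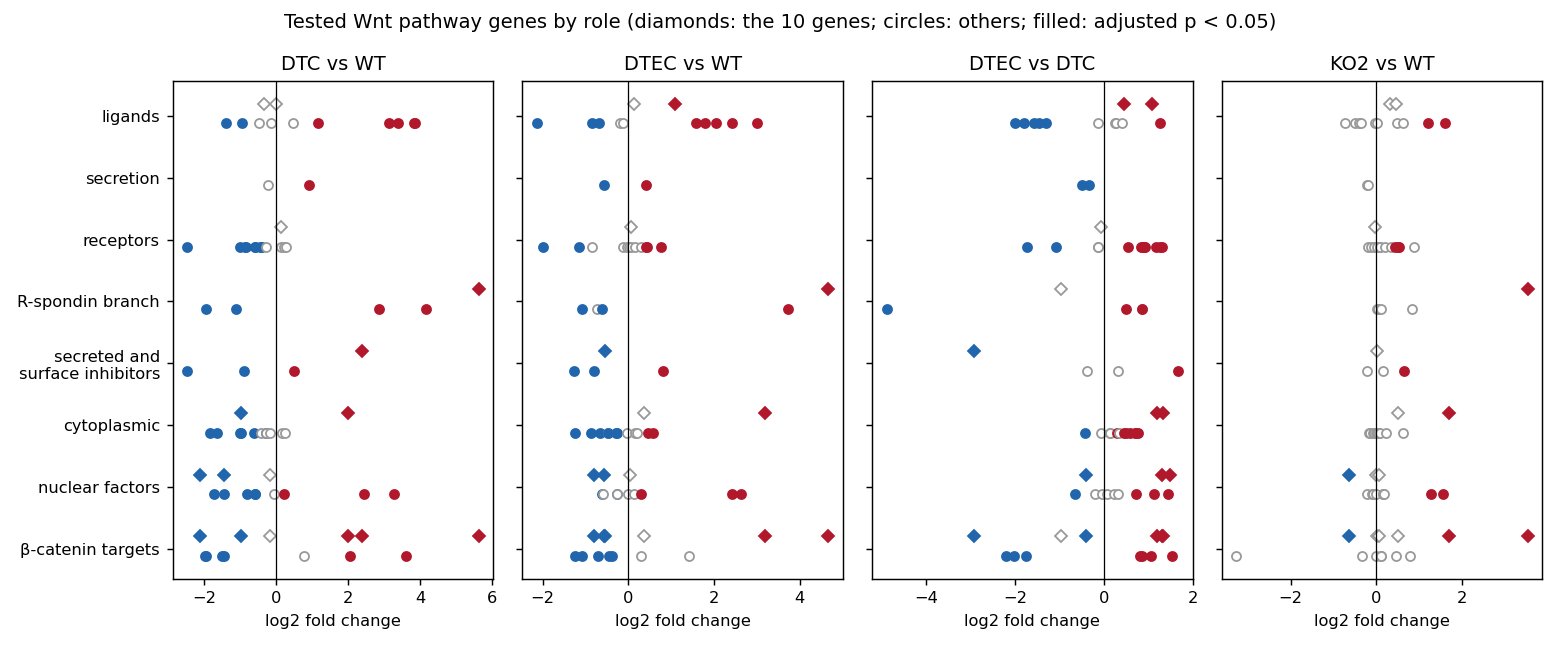
Log2 fold changes (horizontal axes) of the tested pathway genes in 8 role groups (vertical axis) and 4 comparisons. Diamonds are the 10 genes and circles the others, filled red for called higher, filled blue for called lower and open for not called; a gene in more than 1 role group is drawn in each, and in KO2 LEF1 is the one gene drawn in filled blue. In DTC and DTEC the split between red and blue depends on the scaling.

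Ligands moved both ways. Of 12 tested Wnt ligands, 5 rose and 2 fell in DTC, and 6 rose and 3 fell in DTEC. The called share was 58.3% in DTC, below the 67.3% of all tested genes, and 75.0% in DTEC, above 52.3%. The largest rises in DTC were those of WNT10A, from 0.192 ± 0.0527 to 2.88 ± 0.849 CPM (SD, n = 3; log2 fold change 3.87, adjusted p 1.3e-05), WNT4, from 0.942 ± 0.175 to 13.6 ± 3.07 CPM (3.84, adjusted p 5.21e-09), and WNT6, from 0.661 ± 0.292 to 6.85 ± 3.71 CPM (3.38, adjusted p 1.77e-05). WNT11 was at 6.38 ± 1.04 CPM in DTEC against 0.793 ± 0.126 CPM in untreated WT (log2 3.00, adjusted p 2.32e-07). WNT5B, a relative of WNT5A, moved the other way in DTEC, from 4.83 ± 0.305 to 1.08 ± 0.254 CPM (log2 -2.14, adjusted p 1.35e-06). From DTC to DTEC, WNT4 (log2 -1.81, adjusted p 5.21e-06) and WNT5B (-1.99, adjusted p 2.27e-06) fell.

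Of 13 tested receptors and co-receptors, 8 fell and 0 rose in DTC, with the other 5, FZD7 among them, not called, but 3 rose and 4 fell with total counts alone and likewise with the upper quartile. The called share of 61.5% was below the 67.3% of all tested genes, of which 34.0% rose and 33.3% fell. ROR1, a receptor for WNT5A, fell from 77.7 ± 4.05 to 14.0 ± 4.79 CPM (log2 -2.47 ± 0.184 SE, adjusted p 3.82e-08). From DTC to DTEC 8 of the 13 rose and 2 fell, and 7 rose and 3 fell with total counts alone, a called share of 76.9% beside 55.4% of all tested genes. Of 5 tested genes of the R-spondin branch, which controls Frizzled at the surface, 2 rose and 2 fell in DTEC. That called share of 80.0% stood beside 52.3% of all tested genes, of which 26.0% rose and 26.3% fell. The R-spondin receptor LGR6 rose from 0.158 ± 0.109 to 2.19 ± 0.787 CPM (log2 3.73, adjusted p 1.13e-05), as did RNF43. The far more abundant receptor LGR4 fell from 131 ± 6.77 to 86.1 ± 12.8 CPM (log2 -0.60, adjusted p 0.00167), and ZNRF3, a ubiquitin ligase related to RNF43, fell from 42.7 ± 5.33 to 20.2 ± 0.0555 CPM (log2 -1.08, adjusted p 6.49e-06). Of the secreted and surface inhibitors 4 of 16 were tested, and 1 rose and 3 fell in DTEC, a called share of 100% beside the same 52.3%. SFRP1, which sequesters Wnt ligands, was at 204 ± 9.99 CPM in untreated WT, 36.8 ± 5.71 CPM in DTC and 117 ± 5.89 CPM in DTEC, so it was lower at 7 days where DKK1 was higher (log2 -2.47 in DTC, adjusted p 3.76e-10, and 1.67 from DTC to DTEC, adjusted p 2.81e-08). The DKK1 co-receptors moved in opposite directions in DTEC. KREMEN2 fell from 4.95 ± 1.48 to 2.05 ± 0.353 CPM (log2 -1.26, adjusted p 0.000479), and the more abundant KREMEN1 rose from 9.19 ± 0.488 to 16.1 ± 1.09 CPM (log2 0.81, adjusted p 0.00054).

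Of 14 tested cytoplasmic genes 1, AXIN2, rose and 7 fell in DTC, or 3 and 5 with total counts alone, and the called share of 57.1% was below the 67.3% of all tested genes. DVL1, a Dishevelled protein, was lower in DTEC at 58.2 ± 10.3 CPM against 138 ± 37.5 CPM in untreated WT (log2 -1.25, adjusted p 0.000528). Of 12 tested nuclear factors 3 rose and 7 fell in DTC, or 4 and 5 with total counts alone, and the called share was 83.3%. TCF7L1, the family member that mostly acts as a repressor, was at 0.945 ± 0.156 CPM in untreated WT, 9.17 ± 0.536 CPM in DTC (log2 3.27, adjusted p 2.24e-09) and 5.85 ± 0.743 CPM in DTEC (log2 2.62, adjusted p 6.76e-08), so it rose in both drug groups, where TCF7 fell. BCL9, a β-catenin cofactor, was at 79.0 ± 3.26 CPM in untreated WT, 28.9 ± 5.97 CPM in DTC and 79.1 ± 2.85 CPM in DTEC. It fell in DTC against untreated WT (log2 -1.45, adjusted p 1.2e-07) and rose from DTC to DTEC (log2 1.46, adjusted p 3.08e-07). DTEC was not called against untreated WT (log2 0.0021, adjusted p 0.991).

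The 13 tested genes of the β-catenin target list moved both ways. In DTC 5 rose and 6 fell, where 34.0% of all tested genes rose and 33.3% fell. In DTEC 2, AXIN2 and RNF43, rose and 8 fell, where 26.0% of all tested genes rose and 26.3% fell, but 5 rose and 6 fell when scaled by total counts and 5 and 7 by the upper quartile. No test compared a role group with the other genes. MYC fell from 305 ± 29.5 to 77.5 ± 9.75 CPM in DTC (log2 -1.98, adjusted p 3.38e-09) and was at 223 ± 16.3 CPM in DTEC, above DTC (log2 1.53, adjusted p 9.27e-08). TNFRSF19 was lower in DTEC than in DTC (0.357 ± 0.242 against 1.67 ± 0.406 CPM, log2 -2.20, adjusted p 0.00171). Without drug, WT cells averaged 0.1345 ± 0.0296 CPM of TNFRSF19, from 4, 5 and 4 counts. Against that level TNFRSF19 was called higher at 7 days (log2 3.61, adjusted p 4.79e-05). At 28 days it was not called (log2 1.41, adjusted p 0.0608). Of the 20 genes on that list LGR5, NOTUM, APCDD1, ASCL2, TBX3, DKK4 and PROX1 had at most 14 counts in any library and were not tested.

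In KO2, the untreated knockout line, the 10 pathway genes that rose were AXIN2, RNF43, WNT4, WNT11, FZD2, FZD5, PTK7, KREMEN1, TCF7L1 and TLE2. By the naming rule WNT11 was at 2.44 ± 0.176 against 0.793 ± 0.126 CPM in untreated WT (log2 1.61, adjusted p 0.00182), TLE2, a Groucho-type corepressor, at 16.2 ± 0.194 against 5.44 ± 0.413 CPM (log2 1.58, adjusted p 1.92e-05), and TCF7L1 at 2.29 ± 0.254 against 0.945 ± 0.156 CPM (log2 1.27, adjusted p 0.00147). The same 3 genes were also called higher in DTC (log2 3.13, 2.45 and 3.27) and in DTEC (log2 3.00, 2.41 and 2.62), in comparisons that share the untreated WT libraries. AXIN2, WNT4, WNT11, TCF7L1 and TLE2 were called in KO2 in each of 13 alternatives. The count of pathway genes called in KO2 ranged from 5 (without untreated WT replicate 1) to 19 (KO2 and untreated WT fitted alone), and that of the 10 genes from 1 to 5.

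Genes with a pattern like that of AXIN2 were sought among 9794 other genes with a mean of at least 10 CPM, by the root mean square difference of centred log2 CPM over the 12 libraries. The 3 closest were ABCA4 (difference 0.346), EFHD1 (0.383) and TJP3 (0.404), with mean levels of 3.78, 12.1, 19.9 and 11.99 CPM for ABCA4 in untreated WT, DTC, DTEC and KO2. RNF43 had the widest range of group means, 5.34 on the log2 scale, and its closest genes were farther away, NEURL1B at 0.964, BPIFB1 at 1.02 and MUC1 at 1.03. That range and these differences rest in part on RNF43 counts of 0, 0 and 8 in untreated WT, so they are imprecise.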

How the data were processed

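Polyadenylated RNA was sequenced as 101 bp pairs (TruSeq Stranded mRNA) in 12 libraries, 3 per group, all in 1 batch per the labels. The deposited values were estimated counts per gene, unscaled. The submitters' processing notes list RSEM 1.3.1, Bowtie2 2.5.2, DESeq2 1.40.2 and GRCh38; the annotation release, filters and strand setting are not given in the sources used here. Coordinates, exon lengths and overlaps came from GENCODE 29, which held 58261 of the 62754 identifiers; 62700 had a symbol.

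Rounded counts went into edgeR 4.0.16 under R 4.3.3: filterByExpr by group, TMM, 1 mean per group over 12 libraries, robust quasi-likelihood F tests, Benjamini-Hochberg adjustment over 17115 genes. The code was also run on simulated counts with far fewer changed genes, in DTC alone and balanced in direction. That run cannot show how the scaling or error rate behaves where most genes are called. CPM used TMM-scaled totals, and intervals and floors cover counting or between-culture error only, as the labels name no molecular identifiers. Alternatives were RLE, total-count and upper-quartile scaling, no filter, DESeq2 1.42.0, compared groups alone, a replicate block, each library left out, and RNF43 summed with its overlapping gene. Named were the 10 genes and, per comparison, up to 3 rising and 3 falling called list genes with a mean of at least 1 CPM; KO2 WNT4 and the other KO2 calls, KREMEN1, LGR4 and ZNRF3 in DTEC, TCF7L1, WNT11 and TLE2 in DTC, TLE2 in DTEC, and the genes listed as untested, were named after their values were seen. The values of BCL9 and TNFRSF19 against untreated WT were likewise added after they were seen. Members and lists were chosen with earlier results of these data known.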

Additional observations from a re-analysis of the deposited data

Results flagged for a closer look

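For 8 of the 10 genes the change against untreated WT differed between 28 and 7 days of erlotinib, by the direct edgeR quasi-likelihood comparison of DTEC with DTC over all tested genes, where 55.4% of genes were called. The log2 difference (28 minus 7 days) was 1.20 for AXIN2, -0.40 for LEF1, 1.304 for TCF7, 1.48 for TCF7L2, 1.34 for NKD1, -2.92 for DKK1, 1.08 for WNT5A and 0.45 for WNT7B. The calls for LEF1 and WNT7B were kept in only 8 and 6 of 13 alternatives. For DKK1 the 2 changes had opposite signs and both were called (2.37 at 7 days, -0.55 at 28 days). For AXIN2 both were positive and the later one was larger. TCF7L2 and NKD1 were called lower at 7 days and not called at 28 days.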

How the results depend on the processing

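Over the 10 genes and 4 comparisons, 466 of 524 log2 values from the alternatives kept their sign and their side of the threshold, 27 lost a call, 14 gained one and 17 changed sign. No called value changed sign. Scaling by total counts gave LEF1 in DTC 0.20, WNT7B in DTC 0.0308 and FZD7 in KO2 0.0345, and the upper quartile gave LEF1 in DTC 0.13. WNT5A in DTC was -0.00256 with no count filter and -0.00561 with the replicate block. With 1 library left out, WNT5A in DTC ranged from -0.0787 to 0.144, WNT7B in DTEC from -0.0692 to 0.298, FZD7 in DTEC from -0.0391 to 0.1495, TCF7L2 in KO2 from -0.00876 to 0.0856 and FZD7 in KO2 from -0.131 to 0.0714.

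In KO2 the genes called, 738 of 17115, became 1147 with no count filter, 1113 with DESeq2, 2656 with the compared groups alone and 321 to 426 with 1 library left out. The 3 called of the 10 genes became 5 with the compared groups alone and 1 to 3 with 1 library left out, and the 11 pathway genes became 19 and 5 to 8. The cause was not tested. Total counts alone shifted the median log2 fold change of all genes by 0.36 in DTC, 0.17 in DTEC and -0.19 from DTC to DTEC. It moved the share of called genes that were higher from 50.5% to 68.4% in DTC, 49.7% to 63.7% in DTEC, 51.9% to 37.4% from DTC to DTEC and 64.1% to 78.8% in KO2.

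Replicate numbers were shared between groups. Deviations of same-numbered libraries correlated at -0.013 to 0.179, and those of differently numbered libraries at -0.187 to 0.118. The labels give only replicate numbers for cultures grown apart, so the libraries were not taken as pairs. These correlations do not settle whether same-numbered libraries share an effect. Whether the numbers mark a shared source was not tested. With the replicate block 11775, 9255, 9732 and 887 genes were called in DTC, DTEC, DTEC against DTC and KO2, and 7, 6, 8 and 4 of the 10 genes. Without it 11520, 8955, 9480 and 738 genes were called, and 6, 6, 8 and 3 of the 10. With 8 RNF43 counts in all of untreated WT, the size of the RNF43 change is the least precise of the 10.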
